A study of Mus musculus with 12 samples.

Results

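The genes described here make, or respond to, prostaglandins and leukotrienes, and were measured in the mouse microglial cell line SIM-A9. They are 10 genes listed by symbol (Pla2g4a, Ptgs1, Ptgs2, Ptges, Ptgds, Hpgds, Tbxas1, Alox5, Alox5ap and Ptger4) and found by their Ensembl identifiers among the 55416 genes of the count table. All 10 were found, and all 10 were among the 26420 genes that passed the filter on low counts. RNA was sequenced from the parental SIM-A9 line (WT) and from its H14 derivative, labelled a MOK knockout (KO; MOK is a protein kinase), both of C57BL/6 origin. Each line was kept in medium alone or given lipopolysaccharide (LPS), the bacterial cell wall component sensed by Toll-like receptor 4, at a dose of 1 µg/mL. Treatment lasted 5 h, and each of the 4 groups has 3 libraries. The KO data come from 1 line, so effects of MOK loss and of other features of H14 cannot be told apart. The labels call the replicates biological without saying how the cultures were separated, so the p-values reflect spread among libraries that may be partly technical.

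Eicosanoids are oxidised products of arachidonic acid, a fatty acid held in membrane phospholipids. A cytosolic phospholipase A2 frees it. Cyclooxygenases turn it into prostaglandin H2, which terminal synthases convert to prostaglandin E2, prostaglandin D2 or thromboxane, while 5-lipoxygenase and its partner protein FLAP start the branch that leads to leukotrienes. In microglia and macrophages the inducible cyclooxygenase COX-2 and the inducible prostaglandin E synthase are well-known parts of the response to LPS, and prostaglandin E2 acts back on such cells through receptors that include EP4.

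The RefSeq promoter table (GRCm38.p6) held entries for 9 of the 10 genes. The 250 bases upstream of the RefSeq start are shown for the 3 genes that rose most under LPS in both lines, for the constitutive cyclooxygenase gene, which fell, and for Ptgds, which differed most between the lines, so that the windows can be read beside the values that follow. They are written 5′ to 3′ on the strand of the gene, and capitals mark matches to the motifs named next.
Ptgs2 (chr1:150099781-150100030, plus strand): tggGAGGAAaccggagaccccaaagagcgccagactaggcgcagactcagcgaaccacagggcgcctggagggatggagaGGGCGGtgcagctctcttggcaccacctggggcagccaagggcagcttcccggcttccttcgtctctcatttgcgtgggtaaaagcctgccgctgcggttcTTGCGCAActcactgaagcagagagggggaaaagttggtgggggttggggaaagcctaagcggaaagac
Ptges (chr2:30903298-30903547, minus strand): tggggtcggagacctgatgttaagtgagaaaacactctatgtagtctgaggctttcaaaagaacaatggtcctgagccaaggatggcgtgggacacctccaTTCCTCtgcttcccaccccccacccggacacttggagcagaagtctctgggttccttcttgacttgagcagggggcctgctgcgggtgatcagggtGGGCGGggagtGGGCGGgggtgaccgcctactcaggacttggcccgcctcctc
Ptger4 (chr15:5244188-5244437, minus strand): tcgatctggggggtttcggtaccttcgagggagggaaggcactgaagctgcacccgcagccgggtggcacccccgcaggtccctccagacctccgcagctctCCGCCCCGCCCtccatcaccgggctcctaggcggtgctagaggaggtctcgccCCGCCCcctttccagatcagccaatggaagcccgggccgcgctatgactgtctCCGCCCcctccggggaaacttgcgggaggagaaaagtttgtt
Ptgs1 (chr2:36230176-36230425, plus strand): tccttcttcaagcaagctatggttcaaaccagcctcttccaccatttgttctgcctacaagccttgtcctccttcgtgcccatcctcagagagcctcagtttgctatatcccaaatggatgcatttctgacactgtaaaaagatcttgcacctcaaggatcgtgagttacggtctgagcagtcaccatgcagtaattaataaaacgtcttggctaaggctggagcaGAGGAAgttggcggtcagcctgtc
Ptgds (chr2:25469750-25469999, minus strand): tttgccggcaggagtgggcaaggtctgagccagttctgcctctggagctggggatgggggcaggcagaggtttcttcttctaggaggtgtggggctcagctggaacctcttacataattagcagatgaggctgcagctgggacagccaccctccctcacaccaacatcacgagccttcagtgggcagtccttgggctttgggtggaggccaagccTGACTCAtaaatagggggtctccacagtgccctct

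Each entry was searched from 250 bases before to 50 bases after the start, on both strands, for 8 motifs. These were the cAMP response element core TGACG, the C/EBP site TTGCNNAA, the E-box CACGTG, the GC box GGGCGG, the PU.1 site GAGGAA, the AP-1 site TGANTCA, the TATA box TATAAA and an NF-kB site. In Ptgs2 a C/EBP match lay from position -69 to -62 and read the same on both strands. Its cAMP response element core (14 to 18) and its E-box (17 to 22) lay just after the RefSeq start and overlapped each other. Where transcription starts in these cells was not measured, so all positions are relative to the RefSeq start alone. C/EBP matches occurred in 10.8% of the 32851 promoter entries, cores of the cAMP response element in 20.8% and E-boxes in 7.15%. Ptges held GC boxes at -53 to -48 and -42 to -37 and a PU.1 match at -149 to -144, and Ptger4 held 4 GC boxes, the first pair sharing a base. GC boxes were present in 35.7% of all entries and PU.1 matches in 28.3%. Ptgs1 held 1 PU.1 match (-24 to -19) and Ptgds 1 AP-1 match (-35 to -29), a motif found in 7.81% of entries. The NF-kB letters were matched in 1 of the genes, Alox5, and in 4.16% of all entries. A match describes letters in a window and is not evidence of binding.

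**Figure D1:**
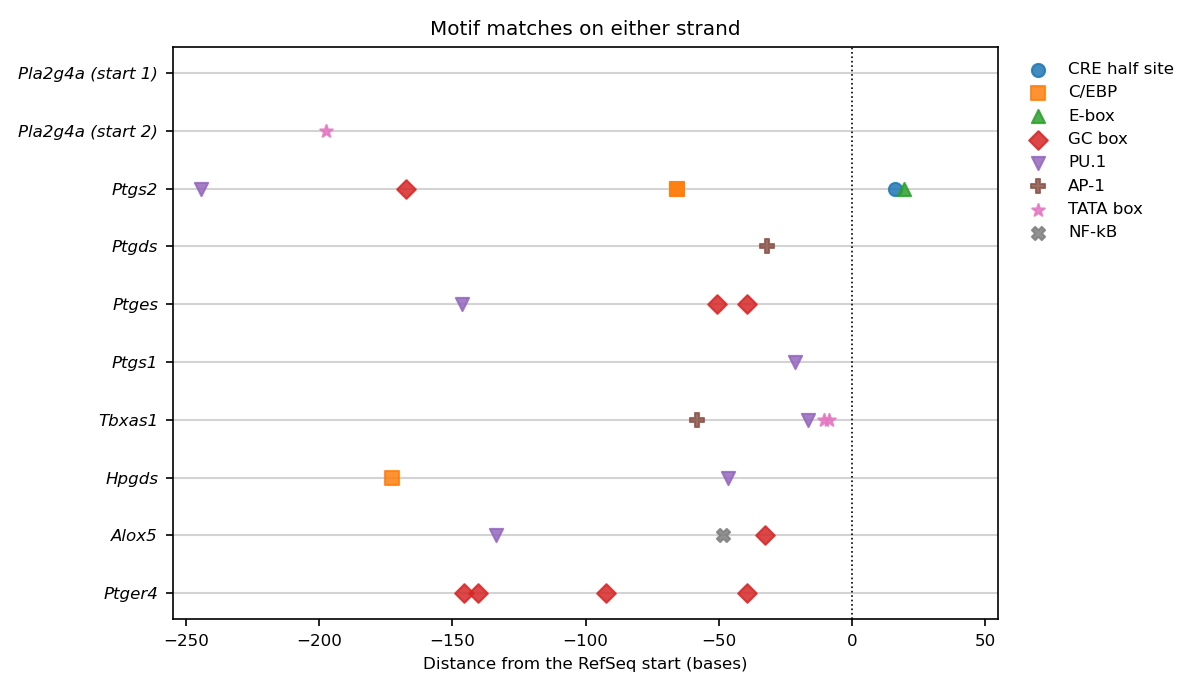
Positions of motif matches in the promoter entries of 9 eicosanoid genes (rows; Pla2g4a has 2 entries), with the distance in bases from the RefSeq start on the horizontal axis and 1 symbol per motif. Ptgs2 is the gene with matches to the most kinds of motif, and Ptger4 holds GC boxes alone.

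Libraries held 39.7 M to 72.9 M counts. Replicates differed by far more than counting noise, with a chi-square per degree of freedom of at least 19.1 for each pair within a group. Mok, the targeted gene, stood at 3.21 to 3.52 CPM in WT and 1.93 to 2.58 CPM in KO in medium, and at 2.17 to 2.83 against 1.319 to 1.695 CPM under LPS, where CPM is the count relative to the library's TMM-scaled size. It was lower in KO under LPS (edgeR log2 fold change -0.72 ± 0.19 SE, adjusted p = 0.0177), a call lost without WT LPS replicate 1 (0.0785), WT LPS replicate 3 (0.0515) or KO LPS replicate 3 (0.0753), and missed the threshold in medium (-0.58 ± 0.19, adjusted p = 0.0501), where 8 of 15 alternatives called it lower (adjusted p of 0.00568 to 0.144 over the 15). Processed pseudogenes took 12.8% to 14.3% of the counts in KO in medium and 6.28% to 7.35% under LPS in either line. In WT medium replicates 1, 2 and 3 they took 8.89%, 13.0% and 6.58%. WT medium replicate 2 thus stood apart from its group, and results that change without it are given with the value they then take. In KO the share went with treatment in every library, so it cannot be told apart from LPS there. In KO LPS replicate 2, genes without a symbol took 10.4% of counts, against 4.88% to 8.18% in the other libraries. The part of either in the results was not tested. Of 14 microglia and macrophage markers, 9 to 12 reached 1 CPM in every library of a group, with Csf1r, Cd68, Ptprc and Tyrobp abundant, while C1qa stayed at a group mean of 0.0819 to 0.343 CPM and P2ry12 at 0.169 to 0.756 CPM. Of these 14, 3 were lower and 1 higher in KO in medium and 3 were lower under LPS (medians of -0.47 and -0.56). Itgam, which encodes CD11b, went from 20.9 in WT to 3.67 CPM in KO in medium and from 24.2 to 2.95 CPM under LPS. Itgam shares 68.1% of its 31-mers (runs of 31 bases) with other genes, which makes its counts less certain. No marker was at 0 in a whole group. Markers of astrocytes summed to at most 5.06 CPM and of neurons to at most 7.45 CPM, while those of endothelial cells and pericytes summed to 91.5 to 112.3 CPM in WT and 112.7 to 132.9 CPM in KO. Kdr made up nearly all of that sum, with Cldn5, Pecam1, Cdh5 and Rgs5 under 1 CPM in every library. The 4 B cell markers summed to 7.49 to 18.8 CPM in WT and 106.1 to 194.5 CPM in KO, nearly all of it Ighm, the IgM heavy chain gene.

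In WT cells LPS raised 4 of the 10 genes and lowered 3, against 16.3% of all genes called higher and 16.3% called lower, at a Benjamini-Hochberg adjusted p under 0.05 in edgeR's quasi-likelihood test (32.6% in either direction). Of the 16173 protein-coding genes in this fit, the class of all 10, 23.2% were higher and 13.6% lower, or 36.8% together. Ptgs2, Ptges, Ptger4 and Pla2g4a were higher, Ptgs1, Ptgds and Alox5ap were lower, and Hpgds, Tbxas1 and Alox5 were not called. The median log2 fold change of the 10 genes was 0.06, beside -0.07 over all genes. In KO cells 5 rose and 2 fell, against 25.3% and 26.8% of all genes (52.0% together) and 33.2% and 17.0% of protein-coding genes (50.3% together). The genes were those of WT with Hpgds added on the higher side and Ptgds no longer called, and the median was 0.16 beside -0.03 over all genes. With scaling by library size alone, which moved the median of all genes to -0.40 in WT and -0.29 in KO, the counts were 3 higher and 5 lower in WT and 3 higher and 2 lower in KO.

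**Figure D2:**
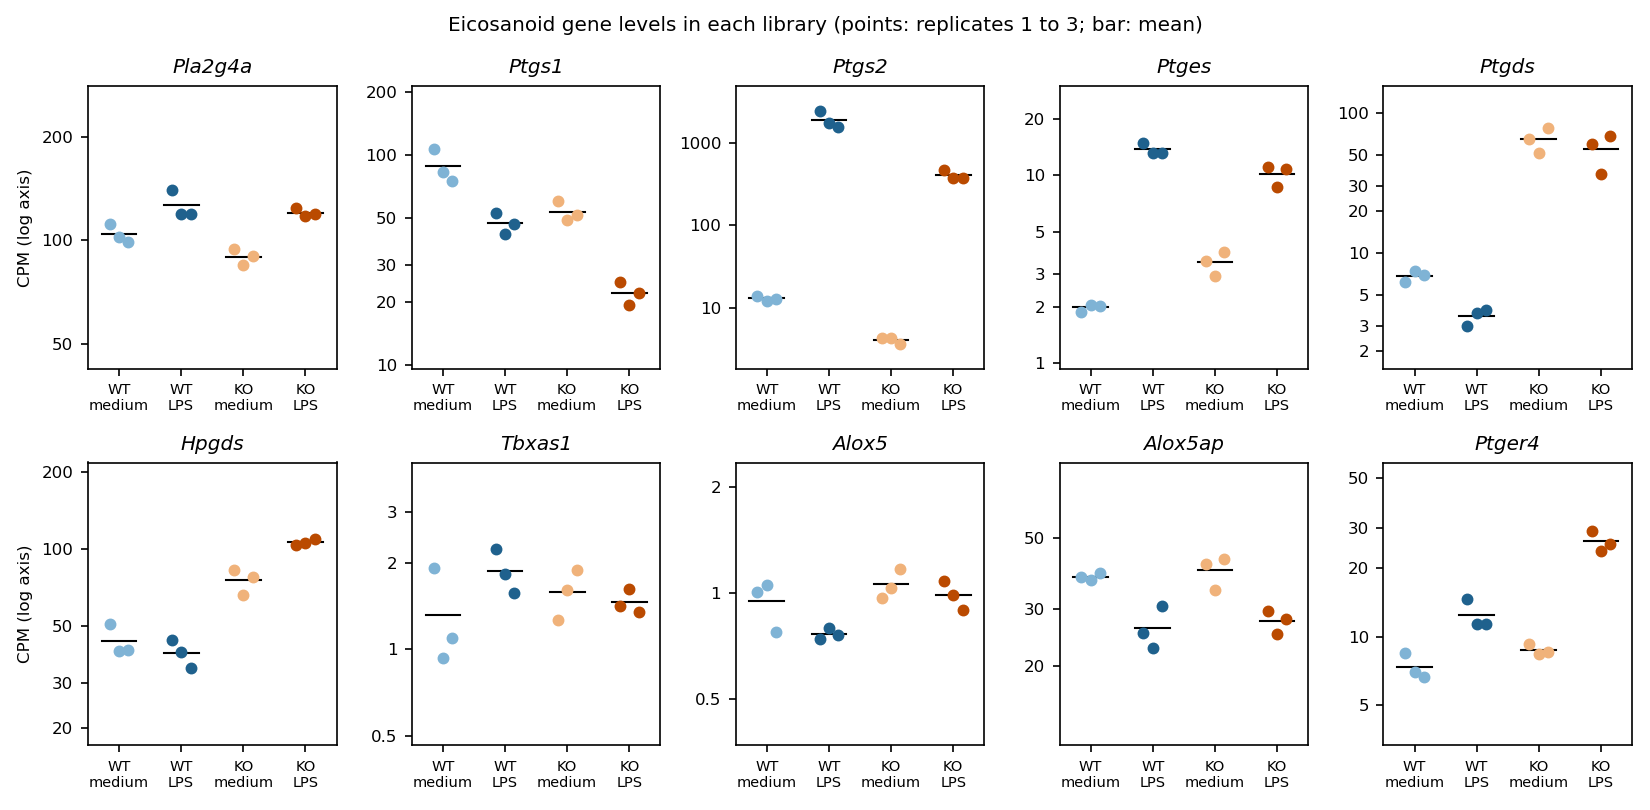
CPM of each gene (panel, log axis) in each of the 12 libraries, grouped by line and treatment; points are replicates and bars group means. Ptgs2 spans 3.65 to 2481 CPM, Ptgds separates the lines with no overlap, and Tbxas1 and Alox5 stay between 0.743 and 2.23 CPM.

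Pla2g4a encodes cytosolic phospholipase A2 alpha, which frees arachidonic acid. It stood at 111.5, 102.5 and 99.1 CPM in WT replicates 1, 2 and 3 in medium and at 140.5, 119.6 and 119.3 CPM under LPS. In KO the values were 94.1, 84.8 and 89.9 CPM in medium and 123.8, 117.5 and 119.4 CPM under LPS. The treated libraries lay above the untreated ones in both lines, with differences that were small. The log2 fold change was 0.28 ± 0.08 in WT (adjusted p = 0.0238) and 0.42 ± 0.08 in KO (adjusted p = 0.00204). The WT value turned to -0.06 with library size alone, and its call held under 8 of 15 alternatives. Besides that scaling, it was lost on leaving out WT medium replicate 2 (adjusted p = 0.114) or 3 (0.0833), without WT LPS replicate 1 (0.102), without a filter on low counts (0.149), with the WT libraries alone (0.0991) and with protein-coding genes alone (0.0653). The KO call was lost with library size alone (0.0508). Between the lines Pla2g4a was not called in medium (-0.22 ± 0.08, adjusted p = 0.0818, but 0.0320 without WT medium replicate 2 and 0.0480 without KO medium replicate 1) or under LPS (-0.07 ± 0.08, adjusted p = 0.648). In medium 5 of 15 alternatives called it lower in KO, with adjusted p of 0.0178 to 0.127 over the 15.

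The cyclooxygenase genes moved in opposite directions. Ptgs2, which encodes the inducible COX-2, was at 13.8, 12.2 and 12.9 CPM in WT in medium and at 2481, 1759 and 1579 CPM under LPS. In KO it was at 4.28, 4.29 and 3.65 CPM in medium and at 473.1, 380.0 and 377.2 CPM under LPS. KO libraries lay below every WT library of the same treatment, and treated libraries of either line lay far above untreated ones. LPS raised Ptgs2 149.6-fold in WT (log2 fold change 7.22 ± 0.21, adjusted p = 1.64e-09) and 100.7-fold in KO (6.65 ± 0.20, adjusted p = 2.74e-09). KO was 3.18-fold below WT in medium (-1.67 ± 0.17, adjusted p = 4.69e-05) and 4.73-fold below it under LPS (-2.24 ± 0.16, adjusted p = 2.70e-06). The difference between the LPS effects was -0.57 ± 0.23 and was not called (adjusted p = 0.302).

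Ptgs1, which encodes COX-1, the cyclooxygenase of resting cells, was at 106.3, 83.2 and 75.1 CPM in WT in medium and at 53.1, 41.9 and 47.0 CPM under LPS. In KO it was at 60.5, 48.8 and 51.6 CPM in medium and at 24.8, 19.3 and 21.98 CPM under LPS. Levels fell with LPS in each line and were lower in KO under each condition, without overlap. The log2 fold change with LPS was -0.90 ± 0.15 in WT (adjusted p = 0.000710) and -1.29 ± 0.15 in KO (adjusted p = 5.74e-05), and that of KO against WT was -0.72 ± 0.15 in medium (adjusted p = 0.00508) and -1.10 ± 0.15 under LPS (adjusted p = 0.000235). Both cyclooxygenase genes were thus lower in KO under both conditions. The myeloid markers Itgam (log2 fold change -2.51 ± 0.16 in medium and -3.04 ± 0.16 under LPS) and Csf1r (-0.70 ± 0.11 and -0.55 ± 0.11) were lower in KO as well, Spi1 was lower in medium (-0.83 ± 0.11) and Adgre1 under LPS (-0.87 ± 0.21). The counts of Itgam are less certain, as given above. Of the 14 microglia and macrophage markers, 10 were not called in medium and 11 under LPS, and 1 was called higher in medium. Tmem119 went from 3.86 in WT to 5.97 CPM in KO in medium, Ptprc from 187.0 to 188.3 and Trem2 from 77.0 to 75.7 CPM. The part of these markers in the cyclooxygenase results was not tested. Ptgs1 overlaps exons of the opposite-strand gene Gm43621, which had 278 counts over all libraries, beside at least 933 for Ptgs1 in each. Per kilobase of exons, the ratio of Ptgs2 to Ptgs1 within a library was 0.1101 to 0.145 in WT and 0.0599 to 0.0744 in KO in medium. Under LPS it was 28.5 to 39.7 in WT and 14.6 to 16.7 in KO, so the gene with the higher level per length switched in both lines. These ratios do not depend on the scaling of the libraries, and the WT and KO ranges did not overlap under either condition.

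**Figure D3:**
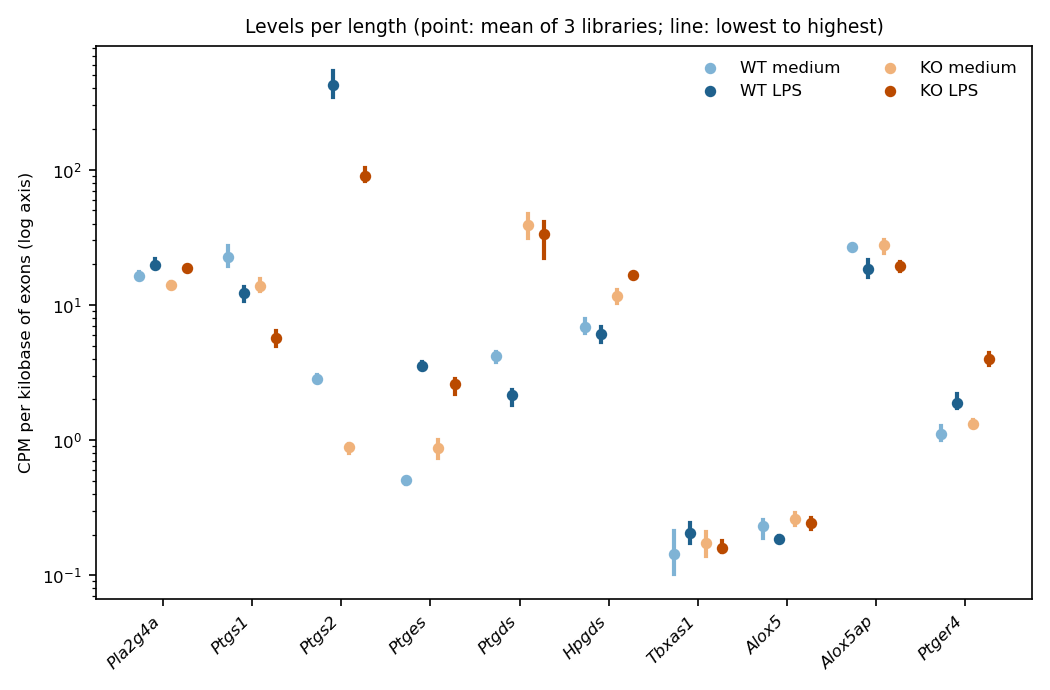
CPM per kilobase of exons (log axis) for the 10 genes in the 4 groups, with points for the mean of 3 libraries and lines from the lowest to the highest library. Ptgs2 passes from 2.83 to 423.5 in WT and from 0.889 to 89.5 in KO, while Ptgs1 goes down in both lines.

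Ptges encodes the inducible microsomal synthase that makes prostaglandin E2 from the cyclooxygenase product. It was at 1.88, 2.05 and 2.03 CPM in WT in medium and at 14.97, 13.19 and 13.25 CPM under LPS. In KO it was at 3.499, 2.92 and 3.93 CPM in medium and at 11.1, 8.64 and 10.9 CPM under LPS. The KO libraries started above WT in medium and ended below WT under LPS, with no overlap at either point. Ptges rose 6.95-fold with LPS in WT (log2 fold change 2.80 ± 0.16, adjusted p = 1.91e-07) and 2.95-fold in KO (1.56 ± 0.15, adjusted p = 1.34e-05). KO was higher in medium (0.80 ± 0.15, adjusted p = 0.00325), and the difference under LPS missed the threshold (-0.44 ± 0.14, adjusted p = 0.0516, with a call in 5 of 15 alternatives). Ptges was the single gene of the 10 whose LPS effect was called different between the lines, at -1.24 ± 0.21 (adjusted p = 0.0138), where 0.693% of all genes were called with a larger effect in KO and 0.908% with a smaller one, 1.60% together. Among protein-coding genes these shares were 1.09%, 1.29% and 2.37%. Leaving out WT LPS replicate 1 ended the call (adjusted p = 0.0544). The adjusted p ranged from 3.69e-05 to 0.0544 over 20 alternatives. Per kilobase, the ratio of Ptges to Ptgs2 was 0.158 to 0.196 in WT and 0.793 to 1.26 in KO in medium, and 0.00703 to 0.00977 in WT and 0.0265 to 0.0335 in KO under LPS.

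Both prostaglandin D synthase genes were higher in KO. Ptgds, which encodes the lipocalin-type enzyme, was at 6.26, 7.40 and 6.95 CPM in WT in medium and at 3.01, 3.74 and 3.89 CPM under LPS. In KO it was at 65.1, 51.7 and 77.5 CPM in medium and at 59.7, 36.4 and 68.2 CPM under LPS. The lowest KO library was far above the highest WT library, and KO LPS replicate 2 was the lowest in its group. KO exceeded WT 9.42-fold in medium (log2 fold change 3.24 ± 0.23, adjusted p = 4.32e-06) and 15.4-fold under LPS (3.95 ± 0.24, adjusted p = 9.56e-07). LPS lowered Ptgds in WT (-0.95 ± 0.23, adjusted p = 0.00886) and was not called in KO (-0.24 ± 0.21, adjusted p = 0.363). The difference between these effects was 0.71 ± 0.31 (adjusted p = 0.341), so a difference in response was not shown.

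Ptgds is also made by oligodendrocytes and by fibroblasts of the meninges, so markers of these cells were summed. The 6 oligodendrocyte markers summed to 30.9 to 33.1 CPM in WT and 38.3 to 44.5 CPM in KO in medium, and to 29.6 to 34.8 and 21.0 to 30.7 CPM under LPS, and 2 or 3 of them reached 1 CPM in every library of a group. The 5 meningeal fibroblast markers summed to 0.995 to 1.87 and 0.852 to 1.65 CPM in medium and to 1.88 to 2.42 and 2.21 to 2.59 CPM under LPS. Single oligodendrocyte markers moved in opposite directions. Mbp, which encodes myelin basic protein, was higher in KO without overlap (8.60 ± 1.08 against 20.1 ± 1.0 CPM in medium and 5.16 ± 0.46 against 11.5 ± 1.9 CPM under LPS, log2 fold changes of 1.22 ± 0.14 and 1.15 ± 0.14). Cnp was lower in KO under LPS (21.7 ± 2.3 against 11.9 ± 2.5 CPM, -0.87 ± 0.16). The B cell gene Ighm was higher in KO under both conditions (3.76 ± 0.29 and 3.82 ± 0.29). The part of these markers in the Ptgds and Hpgds results was not tested.

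Hpgds encodes the unrelated glutathione-dependent prostaglandin D synthase of blood cells. It was at 50.9, 40.03 and 40.3 CPM in WT in medium and at 43.9, 39.4 and 34.3 CPM under LPS. In KO it was at 82.8, 65.9 and 77.5 CPM in medium and at 103.9, 106.0 and 109.1 CPM under LPS. WT values overlapped between treatments, whereas the treated KO libraries lay above all others. LPS raised Hpgds in KO (0.50 ± 0.12, adjusted p = 0.00599, and 0.0774 with library size alone) and was not called in WT (-0.16 ± 0.12, adjusted p = 0.329). Library size alone, 1 of 15 alternatives, called it lower in WT (-0.49, adjusted p = 0.00438). KO was higher than WT in medium (0.79 ± 0.12, adjusted p = 0.000894) and under LPS (1.44 ± 0.12, adjusted p = 7.92e-06). The interaction was 0.65 ± 0.17 and missed the threshold (adjusted p = 0.0991, with 0.0192 to 0.220 over 20 alternatives, the lowest without WT medium replicate 2). Mast cells are a rich source of this enzyme. Their 6 markers summed to at most 1.75 CPM in any library, and 1 of the 6, Kit, passed the filter on low counts. Kit rose with LPS in KO (0.185 ± 0.055 to 1.23 ± 0.15 CPM, log2 fold change 2.72 ± 0.63, adjusted p = 0.00499) and was not called in WT (-0.16). Its part in the Hpgds result was not tested. Per kilobase, Ptgds was at 0.479 to 0.720 of Hpgds in WT in medium and 0.266 to 0.443 under LPS, and at 3.06 to 3.89 of it in KO in medium and 1.34 to 2.44 under LPS. Per kilobase, the order of the D synthase genes was therefore reversed between the lines in every library. This rests on exon lengths of 1649 bases for Ptgds and 6425 bases for Hpgds. In CPM, Hpgds was above Ptgds in every library of both lines, most narrowly in KO medium replicate 3 (77.52 against 77.48).

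Tbxas1, which encodes thromboxane A synthase, was among the lowest of the 10 genes, with 43 to 129 counts per library. It was at 1.92, 0.930 and 1.09 CPM in WT in medium and 2.23, 1.82 and 1.57 CPM under LPS, and at 1.26, 1.61 and 1.89 CPM in KO in medium and 1.41, 1.62 and 1.34 CPM under LPS. The 4 groups overlapped, and none of the 5 comparisons was called, with log2 fold changes between -0.63 ± 0.40 and 0.51 ± 0.28 and adjusted p of 0.180 to 0.744. Without WT medium replicate 1, which had the highest value of its group, the WT LPS effect was 0.81 (adjusted p = 0.0431). Exons of Tbxas1 overlap the opposite-strand gene Gm42962, which had 205 counts over all libraries.

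Of the leukotriene genes among the 10, Alox5ap fell with LPS in both lines and Alox5 was not called. Alox5, which encodes 5-lipoxygenase, had 32 to 58 counts per library, at 1.011, 1.06 and 0.779 CPM in WT in medium, 0.743, 0.798 and 0.760 CPM in WT under LPS, 0.972, 1.04 and 1.18 CPM in KO in medium and 1.09, 0.993 and 0.895 CPM in KO under LPS. It was not called in any comparison (log2 fold changes of -0.30 ± 0.20 to 0.37 ± 0.20, adjusted p of 0.236 to 0.750). The LPS libraries of KO lay above those of WT without overlap, and the other groups overlapped in each pair compared. With library size alone the WT LPS effect was -0.64 (adjusted p = 0.0234). Alox5ap encodes FLAP, the membrane protein that presents arachidonic acid to 5-lipoxygenase, and was much more abundant. It was at 37.9, 37.2 and 38.8 CPM in WT in medium and 25.3, 22.7 and 30.7 CPM under LPS, and at 41.7, 34.4 and 42.9 CPM in KO in medium and 29.6, 25.2 and 28.1 CPM under LPS. LPS lowered it without overlap in both lines, by a log2 fold change of -0.53 ± 0.12 in WT (adjusted p = 0.00584) and -0.52 ± 0.12 in KO (adjusted p = 0.00432). The lines did not differ by a called amount in medium (0.06 ± 0.12, adjusted p = 0.713) or under LPS (0.07 ± 0.12, adjusted p = 0.777), and the interaction was 0.01 ± 0.17 (adjusted p = 0.987). Its antisense gene Gm19719, which overlaps its exons and had 915 counts in all, fell as well (-1.88 ± 0.27 in WT and -1.89 ± 0.28 in KO), and the strand setting of the counting is not given in the sources used here. Per kilobase, Alox5ap was at 73.4 to 144.1 times the level of Alox5 in the 12 libraries.

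Ptger4 encodes EP4, a receptor through which prostaglandin E2 raises cAMP. It was at 8.49, 7.01 and 6.67 CPM in WT in medium and at 14.7, 11.4 and 11.4 CPM under LPS. In KO it was at 9.31, 8.35 and 8.54 CPM in medium and at 29.3, 24.0 and 25.7 CPM under LPS. The lines overlapped in medium, and under LPS every KO library was above every WT library. LPS raised Ptger4 1.69-fold in WT (log2 fold change 0.76 ± 0.14, adjusted p = 0.00136) and 3.01-fold in KO (1.59 ± 0.14, adjusted p = 5.99e-06). KO was 2.10-fold above WT under LPS (1.07 ± 0.13, adjusted p = 0.000153) and was not called in medium (0.24 ± 0.14, adjusted p = 0.217). The interaction of 0.83 ± 0.19 missed the threshold (adjusted p = 0.0587), with 0.00476 to 0.152 over 20 alternatives and a call in 9 of them. Without WT medium replicate 2 it was 0.0155. Exons of Ptger4 overlap the opposite-strand gene Ttc33, which had 22236 counts over all libraries, beside 324 to 1346 for Ptger4 in each. The LPS effect of Ttc33 was 0.29 ± 0.10 in WT (adjusted p = 0.0447) and 0.21 ± 0.10 in KO (adjusted p = 0.0923). The part of this overlap in the Ptger4 results was not tested.

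**Figure D4:**
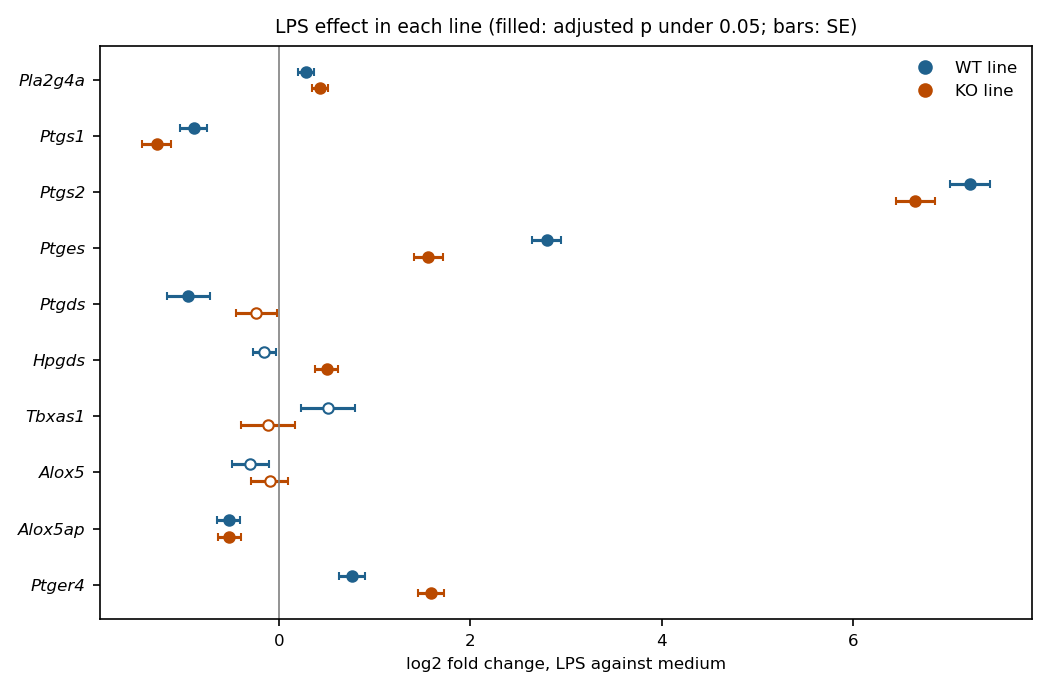
Log2 fold change of LPS against medium for each gene in the WT and KO lines, with bars for the SE and filled points for an adjusted p under 0.05. Ptgs2 rises by 7.22 and 6.65, and Ptges shows the widest gap between the lines, at 2.80 and 1.56.

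Set against WT, the KO line had 3 of the 10 genes higher and 2 lower in medium, where 6.88% of all genes were higher and 12.3% lower (19.2% together). The shares of protein-coding genes were 7.67% and 17.3% (25.0% together). Ptgds, Hpgds and Ptges were the higher ones, and Ptgs2 and Ptgs1 the lower ones. Under LPS 3 were again higher and 2 lower, against 7.87% and 12.7% of all genes (20.6% together) and 11.2% and 17.9% of protein-coding genes (29.1% together), with Ptger4 in the place of Ptges. The median log2 fold change of the 10 genes was 0.20 in medium and 0.0001 under LPS, beside 0.04 and 0.07 over all genes. The 2 comparisons share no library, and each of these calls held under all 15 alternatives run for it.

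**Figure D5:**
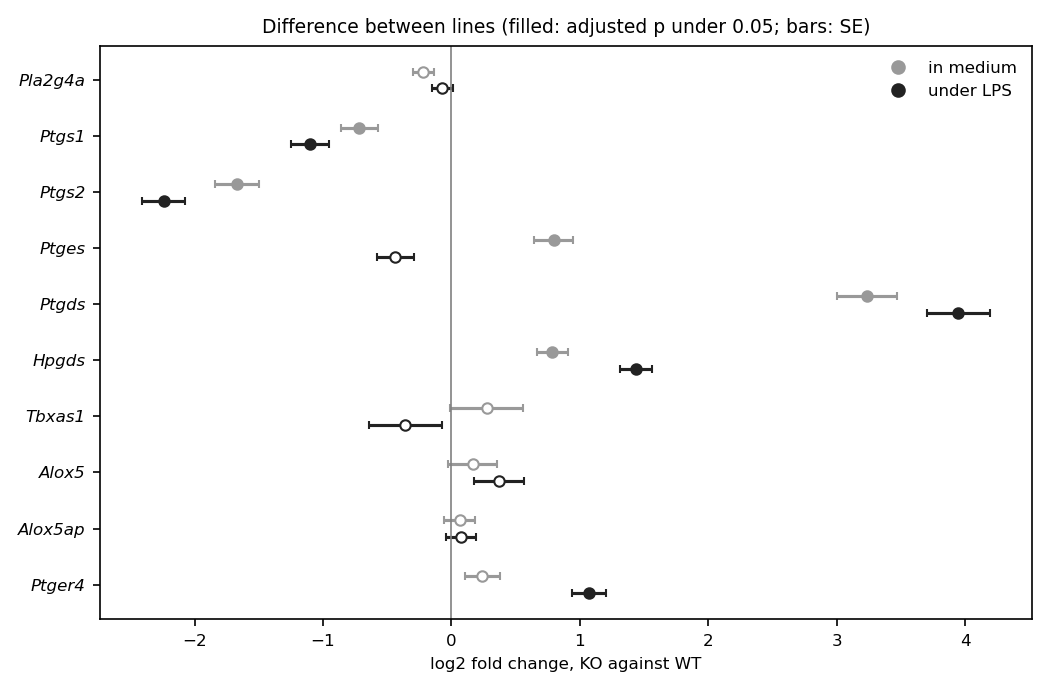
Log2 fold change of KO against WT for each gene in medium and under LPS, with bars for the SE and filled points for an adjusted p under 0.05. Ptgds lies farthest to the right (3.24 and 3.95) and Ptgs2 farthest to the left (-1.67 and -2.24), and the Ptges points fall on opposite sides of 0.

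The order of the 10 genes per kilobase of exons also differed between the groups. In WT in medium Alox5ap (26.7 ± 0.6 CPM per kilobase, SD, n = 3) and Ptgs1 (22.7 ± 4.2) led with overlapping ranges, followed by Pla2g4a (16.3 ± 1.0), Hpgds (6.81 ± 0.96) and Ptgds (4.16 ± 0.35), with Alox5 and Tbxas1 at the bottom and overlapping. Under LPS Ptgs2 led in WT (423.5 ± 104.2), and Pla2g4a (19.8 ± 1.9) and Alox5ap (18.5 ± 2.9) followed without separating from each other. In KO in medium Ptgds led (39.3 ± 7.8), above Alox5ap (27.9 ± 3.2), and Pla2g4a, Ptgs1 and Hpgds followed with overlapping neighbours (14.02, 13.8 and 11.7). Under LPS Ptgs2 (89.5 ± 11.91) and Ptgds (33.2 ± 9.99) led in KO, and Ptgs1 (5.67 ± 0.71) had dropped below Hpgds (16.6 ± 0.4).

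Another 71 genes of arachidonate release, prostanoid and leukotriene synthesis, breakdown, transport and reception were followed, 63 of which passed the filter. In WT 11 rose and 9 fell with LPS, and in KO 10 rose and 19 fell, while KO against WT gave 5 higher and 8 lower in medium and 10 higher and 15 lower under LPS. Over all genes, 16.3% were higher and 16.3% lower in the first of these comparisons, 25.3% and 26.8% in the second, 6.88% and 12.3% in the third and 7.87% and 12.7% in the fourth. The 11 and 9 of 63 in WT, and the 5 and 8 of 63 for KO against WT in medium, are near the shares over all genes. The medians were -0.22, -0.27, 0.01 and 0.02, beside -0.07, -0.03, 0.04 and 0.07 over all genes. Among 24 genes of arachidonate release and re-esterification, 5 rose and 6 fell in WT and 5 rose and 8 fell in KO. Against WT, KO had 4 higher and 5 lower in medium and 4 higher and 7 lower under LPS. Lpcat2, an acyltransferase of lysophospholipids that also makes platelet-activating factor, rose from 5.67 ± 0.30 to 21.7 ± 1.8 CPM in WT (log2 fold change 1.93 ± 0.20, adjusted p = 2.18e-05) and from 1.30 ± 0.31 to 4.06 ± 0.98 CPM in KO (1.65 ± 0.21, adjusted p = 0.000108). KO was below WT by -2.13 ± 0.21 in medium and -2.41 ± 0.20 under LPS. The secreted phospholipase gene Pla2g5 rose in WT from 87.2 ± 1.8 to 250.1 ± 9.4 CPM (1.52 ± 0.08, adjusted p = 1.17e-07). Daglb, a diacylglycerol lipase on the route to the endocannabinoid 2-arachidonoylglycerol, fell in WT from 46.1 ± 3.3 to 14.3 ± 0.4 CPM (-1.69 ± 0.07, adjusted p = 2.79e-08) and less far in KO, from 48.1 ± 1.6 to 24.3 ± 0.7 CPM, with an interaction of 0.70 ± 0.10 (adjusted p = 0.00632). Pla2g4f, another cytosolic phospholipase A2, was higher in KO by 2.54 ± 0.28 in medium (0.546 ± 0.11 against 3.15 ± 0.71 CPM, adjusted p = 7.42e-05) and by 2.61 ± 0.29 under LPS (adjusted p = 5.72e-05).

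The lists below hold few genes, and their counts are read beside the shares over all genes. With LPS these shares were 16.3% higher and 16.3% lower in WT and 25.3% and 26.8% in KO. For KO against WT they were 6.88% and 12.3% in medium and 7.87% and 12.7% under LPS. Of 5 other prostanoid synthase genes, 1 rose in WT, 1 rose and 1 fell in KO, and 1 was lower in KO than in WT under each condition. Of 6 further prostanoid receptor genes measured, 2 rose and 1 fell in WT, 1 rose and 1 fell in KO, and none was called between the lines. Of 6 genes of prostanoid transport and breakdown, 1 was lower in KO than in WT in medium, and 1 was higher and 3 lower under LPS. With LPS 2 rose in WT, and 3 rose and 2 fell in KO. Slco2a1, a prostaglandin transporter, was among those that rose in KO (1.70 ± 0.39, adjusted p = 0.00480, from 0.688 ± 0.076 to 2.24 ± 0.78 CPM). In leukotriene synthesis and breakdown none of 9 genes rose with LPS in either line, and 1 fell in WT and 2 in KO. Against WT, KO had 1 higher and 1 lower in medium and 4 higher and 1 lower under LPS. Mgst3, a microsomal glutathione transferase that can form leukotriene C4, was higher in KO in medium (17.8 ± 3.4 against 40.8 ± 11.4 CPM, 1.20 ± 0.29, adjusted p = 0.0166), a call lost without KO medium replicate 1 (0.0560) or 3 (0.0582). Cysltr1, the receptor for cysteinyl leukotrienes, fell with LPS in KO from 18.8 ± 3.7 to 4.25 ± 0.20 CPM (-2.14 ± 0.15, adjusted p = 1.24e-06) and in WT from 21.7 ± 2.5 to 10.9 ± 0.6 CPM (-0.99, adjusted p = 0.000325). KO was lower by -1.36 ± 0.15 under LPS (adjusted p = 5.21e-05). Its interaction of -1.15 ± 0.20 was called (adjusted p = 0.0179) and lost without WT LPS replicate 1 (0.0619) or 2 (0.0502), KO medium replicate 3 (0.0553) or KO LPS replicate 3 (0.0573). Among the 6 receptor genes for leukotrienes and other lipid mediators, Cysltr1 included, 1 rose and 1 fell in WT, and 3 fell in KO. None of them was called between the lines in medium, and 1 was higher and 2 lower in KO under LPS. Of 7 other lipoxygenase and epoxide hydrolase genes, none was called with LPS in WT and 2 fell in KO. Between the lines none was called in medium, and 1 was lower in KO under LPS.

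Over the 12 libraries, the pattern of Ptgs2 was most like that of Mdm2, Gch1 and Cxcl2 (Pearson r of log2 CPM 0.998, 0.997 and 0.997 among the 9834 genes whose log2 CPM averaged 2 or more). The nearest to Ptges were Dusp10, Slfn8 and Herc6 (0.991, 0.989 and 0.987), and the nearest to Ptgds were Zfp469, Vipr1 and Tmem222 (0.992, 0.988 and 0.986). The libraries fall into 4 groups, so these values mostly describe group means. Slfn8 and Herc6 share 26.8% and 13.8% of their 31-mers with other genes and Cxcl2 shares 7.59%, which makes their counts less certain, whereas the 10 eicosanoid genes share at most 2.22%.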

How the data were processed

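Ribosomal RNA was removed from total RNA before stranded libraries were made and sequenced, per the labels' protocols. The authors deposited raw read counts per Ensembl gene, 1 column for each of 12 libraries. FastQC 0.11.9, Trimmomatic 0.39, STAR 2.7.9a, featureCounts, DESeq2 1.32.0 and GRCm39 are named, per the submitters' processing notes. How strand was set, the annotation release and how reads with several locations were counted are not given here in the sources used.

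Of 55416 identifiers, 52083 matched a symbol in GENCODE M21 (GRCm38), which also gave gene classes, exon lengths (the union of a gene's exons), overlaps and 31-mers. Builds differ, so the only coordinates are those of RefSeq promoters on GRCm38.p6. All 12 libraries were fitted with edgeR 4.0.16 (filterByExpr, minimum count 10, TMM scaling, robust quasi-likelihood, 4 group means, biological coefficient of variation 0.235) in R 4.3.3. Adjusted p-values are Benjamini-Hochberg over 26420 genes in a comparison, and a call needs one under 0.05. Values after ± are SE for log2 fold changes and SD with n = 3 for levels. The fit was run on simulated counts drawn from the spread estimated in these data, with known changes placed in KO LPS alone. The simulation holds no replicate effects, so it cannot show how the fit handles them.

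Named pathway genes were the 3 called ones with the largest change per comparison at a mean log2 CPM of at least 0. The symbol Dpep2 was not matched to a single identifier. The 10 genes and the lists were chosen with earlier results of these data known. Alternatives were scaling by RLE or by library size alone, a stricter filter or none, DESeq2 1.42.0, non-robust estimation, a block for the replicate number, the compared groups alone, protein-coding genes alone, and each library left out. Applying them to Mok and the other pathway genes was decided after seeing the data.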

Additional observations from a re-analysis of the deposited data

Results flagged for a closer look

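The LPS effect differed between the lines, by a test of the difference itself, for Ptges and for 6 of the 63 other pathway genes tested. Of these 6, 3 were called with a higher effect in KO and 3 with a lower one. Over all genes the share called was 1.60% (0.693% higher and 0.908% lower), and over protein-coding genes it was 2.37%. Ptges, the inducible prostaglandin E synthase, had an LPS effect lower by -1.24 on the log2 scale in KO (edgeR adjusted p = 0.0138). Cysltr1, the cysteinyl leukotriene receptor, had an effect lower by -1.15 (adjusted p = 0.0179). Faah, which breaks down arachidonoyl ethanolamide, had one lower by -0.68 (adjusted p = 0.0354). It rose from 10.3 ± 0.5 to 23.5 ± 2.2 CPM in WT and from 16.8 ± 1.1 to 24.0 ± 2.0 CPM in KO (SD, n = 3), and the call held under 8 of 20 alternatives. Daglb had an effect higher by 0.70 (adjusted p = 0.00632), and its call held under all 20 alternatives. The Ptges call held under 19 and the Cysltr1 call under 16. The other 3 genes fell outside the rule for named genes and are named with their values known. Abcc4, a transporter that exports prostanoids, had an effect higher by 0.65 (adjusted p = 0.00866), and Acsl3, an acyl-CoA synthetase, one higher by 0.49 (adjusted p = 0.0411). Fpr2, a receptor for lipid and peptide mediators, was called with a lower effect (adjusted p = 0.0488) at group means of 0.0194 CPM in WT medium, 0.3896 in WT LPS, 0.0280 in KO medium and 0.0140 in KO LPS. At such levels no fold is given. Fpr2 also shares 43.0% of its 31-mers with other genes, which makes its counts less certain.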

How the results depend on the processing

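Of 150 values of the 10 genes under alternatives in each single comparison, 140 (LPS in WT), 148 (LPS in KO), 144 (KO against WT in medium) and 142 (KO against WT under LPS) kept their direction and their side of the threshold, as did 178 of 200 for the interaction. Library size alone gave 5 genes of the 10 lower in WT with LPS (3 in the fit reported) and 3 higher in KO (5). For the interaction, 2 of the 10 were higher with DESeq2, with library size alone and with the replicate block, and 1 with protein-coding genes alone or the stricter filter, where edgeR reported 0. The genes were Hpgds and Ptger4, with unadjusted p = 0.00261 and 0.00105. Near-zero values changed sign. These were Pla2g4a at -0.060 (LPS in WT) and 0.0018 (KO against WT under LPS) with library size alone, and Alox5ap in the interaction at -0.018 without a filter and -0.046 with protein-coding genes alone.

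With 1 library left out, Alox5ap ranged from -0.025 to 0.142 (KO against WT in medium), -0.024 to 0.198 (under LPS) and -0.086 to 0.136 (interaction), and Pla2g4a from -0.12 to 0.0061 (KO against WT under LPS). Members called in the interaction ranged from 0 to 2 higher and 0 to 1 lower, the 0 without WT LPS replicate 1. Over all genes, calls numbered 5322 to 10400 (8600 in the fit reported) for LPS in WT (the lowest without WT LPS replicate 1, and 5695 without WT LPS replicate 3), 3444 to 11265 (5074) for KO against WT in medium and 186 to 3997 (423) for the interaction, with the highest of the last pair without WT medium replicate 2. Protein-coding genes alone gave 8285 calls for LPS in KO (13749) and 670 for the interaction, DESeq2 gave 857 and the replicate block 661 for the interaction, and the compared groups alone gave 3354 for KO against WT in medium.

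The other pathway genes with LPS in WT were 7 higher and 26 lower with library size alone, 16 lower with the compared groups alone and 20 lower with protein-coding genes alone (11 higher and 9 lower in the fit reported). In KO 33 were lower with library size alone (19) and 12 to 20 with a library left out. KO against WT in medium gave 8 higher with protein-coding genes alone (5), 3 to 10 with a library left out, and 5 lower with the compared groups alone (8). Under LPS 5 to 9 were higher with a library left out (10), and in the interaction 1 was lower with RLE scaling (3) and 0 to 3 with a library left out. Library size alone split all calls as 2104 higher and 9985 lower for LPS in WT (4303 and 4297), 4182 and 10422 in KO (6679 and 7070), 2922 and 2936 for KO against WT under LPS (2080 and 3351) and 360 and 236 for the interaction (183 and 240). The compared groups alone gave 802 and 2552 for KO against WT in medium (1818 and 3256). Apart from fewer genes or samples in a fit, the cause was not tested.

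Same-numbered replicates correlated between groups from -0.481 to 0.638, above 0.1 in 12 of 18 pairs. All pairs of replicate 1 were positive (0.144 to 0.638), and those of replicate 3 ran from -0.481 to 0.364. Whether the numbers pair samples was not tested further, and the fit reported has no block for them. With that block the interaction gave 311 genes higher and 350 lower (183 and 240 in the fit reported). Hpgds and Ptger4 were then among the genes called higher. Alox5 and Tbxas1 rest on the fewest counts of the 10 genes, 32 to 58 and 43 to 129 per library, and whether depth or spread between replicates limits their tests was not tested.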
